A study of Mus musculus with 15 samples.

Results

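The collagen genes were examined in RNA-Seq libraries of mouse conjunctiva, the mucous membrane that lines the eyelids and covers the white of the eye. Members were all genes in the count table whose symbol reads Col, a number, a and a number with nothing after it, which gave 44 of 55487 genes listed. They were placed in classes by the kind of assembly their protein forms: 11 fibrillar genes, 6 of type VI (beaded filaments), 6 of type IV (the basement membrane network), 2 multiplexins of the basement membrane zone, 1 anchoring fibril gene, 4 transmembrane collagens, 9 fibril-associated collagens with interrupted triple helices (FACIT), 3 short-chain network genes and 2 others. Of these, 43 had enough counts to be tested among 19006 genes; *Col19a1* did not, with 1 to 5 counts per library.

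The 15 libraries formed 3 groups of 5, all from wild-type mice of the strain labelled BALC/c, aged 9 to 12 weeks according to the methods. All mice had been sensitized through the ear skin with ovalbumin (OVA) and MC903 (calcipotriol), a vitamin D analog that inflames the skin. The PBS group then received PBS on the eye, the isotype group received OVA on the eye and an isotype control antibody, and the anti–IL-4Rα group received OVA on the eye and an antibody that blocks the receptor chain shared by IL-4 and IL-13. The eye challenge lasted 7 days. No antibody is labelled for the PBS group, so in isotype against PBS the OVA challenge and the control antibody cannot be told apart. The titles give each library its own mouse number, and the p-values measure the spread between these libraries.

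Collagens are triple-helical proteins of the extracellular matrix. Fibrillar collagens (types I, II, III, V, XI, XXIV and XXVII) form the fibrils of connective tissue, type IV forms the sheet under epithelia and around vessels and muscle fibers, and type VI forms beaded filaments close to cells, where an α1 and an α2 chain pair with an α3 chain or with one of the α3-like chains α4, α5 and α6. In the conjunctiva these proteins make up the stroma beneath the epithelium, and fibroblasts are their main source. IL-4 and IL-13 are known to act on fibroblasts and to raise collagen production in several tissues.

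Library totals ran from 48622246 to 87745024 counts. The epithelial identity of the tissue could be read from basal keratinocyte markers such as *Krt5* and *Krt14*, whose 8 genes summed to between 9527 and 15381 normalized counts per 1000000 counts (CPM). Markers of skeletal muscle and of the lacrimal gland were also detected, at levels that varied between libraries. The 10 skeletal muscle markers summed to 8558 to 15687 CPM in the PBS group, 5247 to 7950 in the isotype group and 6693 to 9964 in the anti–IL-4Rα group, so PBS and isotype did not overlap. Lacrimal acinar markers summed to 607 to 55748 CPM, 402 to 35449 CPM and 1838 to 166628 CPM in the same order. Leukocyte markers summed to 220 to 269, 259 to 485 and 266 to 379 CPM. Fibroblast markers summed to 859 to 1073, 794 to 1106 and 876 to 1069 CPM, ranges that overlapped in all 3 groups. In whole tissue, fewer cells of a type and less RNA per cell cannot be told apart.

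The genes of the α3-like chains, *Col6a6*, *Col6a5* and *Col6a4*, lie in a row on the minus strand of chromosome 9 with 27917 and 28810 bases between neighbors. Their sequence upstream of the start of the gene is shown because the first 2 of them moved with the treatment in the tests given further on, *Col6a5* more than any other collagen. The windows are *Col6a6* at chr9:105828161-105828335, *Col6a5* at chr9:105960644-105960893 and *Col6a4* at chr9:106096784-106096941 of GRCm38.p6, read on the minus strand from the RefSeq promoter table and cut at the gene start of the GENCODE annotation. Capitals mark matches, on either strand, to TTCNNNGAA (the core letters of a STAT element), to GGGCGG (the letters of a GC box) and to CCAAT.
Col6a6: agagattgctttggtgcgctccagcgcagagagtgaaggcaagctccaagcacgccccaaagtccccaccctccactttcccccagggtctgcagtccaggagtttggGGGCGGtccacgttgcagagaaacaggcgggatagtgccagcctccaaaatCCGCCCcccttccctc
Col6a5: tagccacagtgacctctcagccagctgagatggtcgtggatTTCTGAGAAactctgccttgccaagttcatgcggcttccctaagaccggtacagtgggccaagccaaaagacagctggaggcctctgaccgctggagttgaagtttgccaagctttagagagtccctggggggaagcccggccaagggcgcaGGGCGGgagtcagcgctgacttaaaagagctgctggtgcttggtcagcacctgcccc
Col6a4: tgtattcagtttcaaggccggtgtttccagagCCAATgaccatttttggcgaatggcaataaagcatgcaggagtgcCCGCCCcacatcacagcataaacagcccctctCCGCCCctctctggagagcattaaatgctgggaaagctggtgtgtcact
The *Col6a5* window held TTCNNNGAA once, beginning 209 bases upstream of the gene start, and GGGCGG once, 57 bases upstream. The *Col6a6* window held GGGCGG at 67 and 16 bases upstream, and the *Col6a4* window held it at 81 and 49 bases upstream. Promoter windows were matched for 35 of the collagen genes, in 38 windows that reach from 250 bases before to 50 bases after a gene's start. TTCNNNGAA was in 2 of the 38 windows (*Col6a5* and *Col28a1*), or 5.26%, against 8.29% of all 32817 windows. The same letters with a spacer 1 base longer, the spacing known to be preferred by STAT6 of the IL-4 pathway, were in 0 of the 38 windows and in 6.94% of all. GGGCGG was in 23 of the 38 windows, or 60.5%, against 35.6% of all; CCAAT was in 34.2% against 37.4%, and TATAAA in 13.2% against 13.6%. A match of letters is a description and not a binding site.

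In the isotype group, 14 of the 43 collagen genes tested were higher and 4 were lower than in the PBS group (edgeR quasi-likelihood test, adjusted p under 0.05). The 18 called genes compare with 17.0% of all genes tested that were called in this comparison, 9.53% higher and 7.49% lower. The higher genes were 5 of 6 type VI genes, 5 of 11 fibrillar genes, *Col4a1* and *Col4a2*, *Col18a1* and *Col12a1*; the lower genes were *Col4a5*, *Col4a6*, *Col20a1* and *Col8a2*. The median log2 fold change of the 43 genes was 0.21, against −0.01 for all genes tested. The isotype libraries were all above the PBS libraries for 7 collagen genes, namely the 6 of type VI and *Col18a1*, and below for *Col4a6* and *Col8a2*, beside 6.85% and 5.43% of all genes.

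With anti–IL-4Rα, 9 of the 43 genes were lower than with isotype and 0 were higher (edgeR). The background called in this comparison was 14.9%, with 8.13% lower and 6.73% higher. The 9 genes were *Col6a1*, *Col6a2*, *Col6a3*, *Col6a5*, *Col6a6*, *Col5a2*, *Col5a3*, *Col11a1* and *Col18a1*. At an unadjusted p under 0.05, 4 genes were higher and 15 lower; DESeq2 called 2 higher and 11 lower, limma voom 1 and 8, and a linear model on log2(FPKM + 1) 0 and 6. The count was 17 without isotype replicate 1 and 4 without replicate 2 or 3. The share of all genes at the unadjusted p, in the other tools or without 1 library is not given here. These counts therefore have no background beside them. The median log2 fold change was −0.24, against 0.01 for all genes. Against PBS, the anti–IL-4Rα group differed in 1 gene, *Col6a5*, which was lower, beside 3.72% of all genes called (1.44% lower and 2.28% higher); 0 genes were higher at an adjusted or an unadjusted p under 0.05, and 5 were lower at the unadjusted p. Both comparisons of the anti–IL-4Rα group share their libraries with the others, so their fold changes are given side by side and not as separate evidence.

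**Figure D1:**
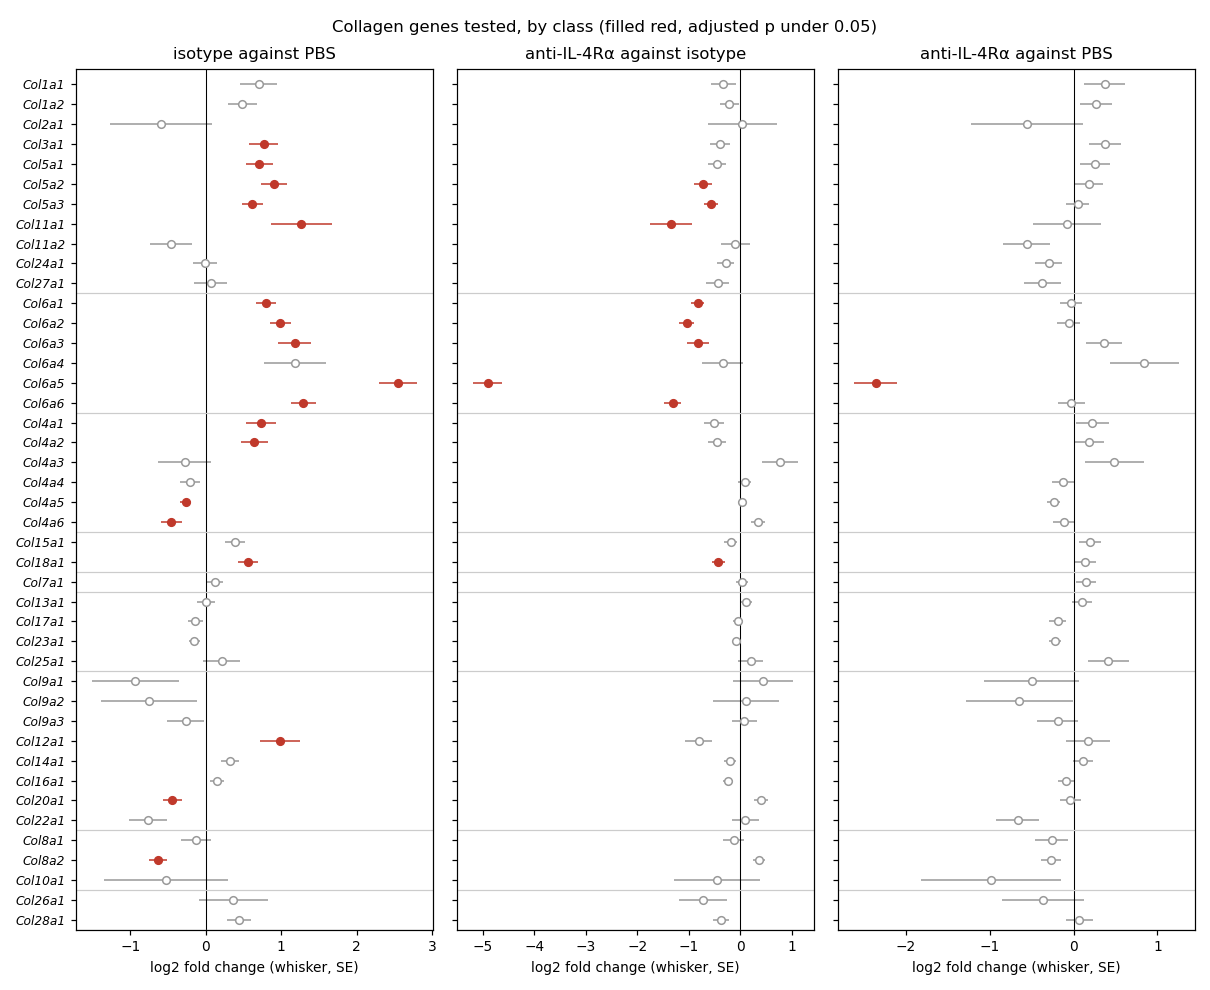
Log2 fold change of the 43 collagen genes tested (horizontal axis, whiskers are the SE) in 3 comparisons, one row per gene, with gray lines between classes; filled red points passed an adjusted p of 0.05. The type VI genes lay to the right of 0 in isotype against PBS, and *Col6a5* was the member farthest from 0 in each panel.

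*Col6a5* (ENSMUSG00000091345, chr9:105856078-105960643), which encodes the α5 chain of type VI, was at 11.96, 8.59, 10.7, 12.2 and 10.6 CPM in the PBS libraries. In the isotype libraries it was at 39.5, 40.9, 87.8, 49.1 and 99.5 CPM, and with anti–IL-4Rα at 1.77, 2.59, 1.97, 1.98 and 2.20 CPM. The 3 groups did not overlap: every isotype library was above and every anti–IL-4Rα library below the PBS libraries. *Col6a5* was the 1 collagen gene with all anti–IL-4Rα libraries below PBS, and 0 collagen genes had them all above, beside 3.12% and 2.98% of all genes. On the log2 scale the difference was 2.55 (SE 0.248, adjusted p = 0.000177) for isotype against PBS, −4.91 (SE 0.281, adjusted p = 4.9e-07) for anti–IL-4Rα against isotype, a 30.1-fold lower level, and −2.36 (SE 0.258, adjusted p = 0.00139) for anti–IL-4Rα against PBS. The exact permutation test gave a two-sided p of 0.00794 each time, the smallest that 5 against 5 libraries allow. Leaving out any 1 of the 15 libraries kept all 3 calls. In anti–IL-4Rα against PBS the linear model on log2(FPKM + 1) did not call it (adjusted p = 0.063).

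*Col6a6* (ENSMUSG00000043719, chr9:105687809-105828160), the gene of the α6 chain, lies next to *Col6a5*. It was at 19.2, 20.9, 18.8, 21.0 and 21.4 CPM with PBS, 36.7, 38.4, 61.6, 42.4 and 69.1 CPM with isotype, and 22.6, 20.2, 21.4, 15.2 and 20.1 CPM with anti–IL-4Rα. All isotype libraries were above all others, while the PBS and anti–IL-4Rα ranges overlapped. The log2 fold changes were 1.29 (SE 0.165, adjusted p = 0.000641), −1.32 (SE 0.165, adjusted p = 0.000709) and −0.02 (SE 0.163, adjusted p = 0.954) for isotype against PBS, anti–IL-4Rα against isotype and anti–IL-4Rα against PBS. The last gene of the row, *Col6a4* (ENSMUSG00000032572, chr9:105989454-106096783), was scarce, at 0.605, 0.475, 0.743, 0.803 and 0.685 CPM with PBS and 0.858, 1.15, 2.07, 1.76 and 1.697 CPM with isotype. These ranges did not overlap, but the adjusted p was 0.0616 (log2 fold change 1.19, SE 0.411). With anti–IL-4Rα it was at 0.895, 2.92, 0.860, 0.593 and 0.591 CPM, where 1 library, replicate 2, was above every isotype library; without it the adjusted p for isotype against PBS was 0.00832.

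The common chains α1 and α2 are encoded side by side on chromosome 10 by *Col6a1* (ENSMUSG00000001119, chr10:76708792-76726168) and *Col6a2* (ENSMUSG00000020241, chr10:76595762-76623630). *Col6a1* was at 260, 325, 319, 318 and 338 CPM with PBS, 375, 577, 642, 482 and 634 CPM with isotype, and 320, 286, 327, 258 and 332 CPM with anti–IL-4Rα. *Col6a2* was at 223, 291, 288, 274 and 305, then 378, 567, 666, 480 and 653, then 278, 247, 276, 230 and 297 CPM in the same order. For both genes every isotype library stood above the 10 others, with isotype replicate 1 the nearest to them. The log2 fold changes were 0.80 (SE 0.133, adjusted p = 0.00255) and −0.83 (SE 0.133, adjusted p = 0.00371) for *Col6a1*, and 0.99 (SE 0.140, adjusted p = 0.00109) and −1.05 (SE 0.140, adjusted p = 0.00117) for *Col6a2*, for isotype against PBS and anti–IL-4Rα against isotype. The exact permutation p was 0.00794 in all 4 cases. Between anti–IL-4Rα and PBS the values were −0.03 (SE 0.132) and −0.06 (SE 0.139), neither of which passed.

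*Col6a3* (ENSMUSG00000048126, chr1:90765923-90843971), the gene of the usual partner of the α1 and α2 chains, was at 87.0, 103, 88.5, 94.4 and 102 CPM with PBS and 114, 292, 283, 165 and 222 CPM with isotype. With anti–IL-4Rα it was at 105, 112, 129, 99.2 and 164 CPM. The isotype libraries did not overlap with PBS but did overlap with anti–IL-4Rα, because isotype replicate 1 was low. On the log2 scale the difference was 1.18 (SE 0.217, adjusted p = 0.00428) and −0.82 (SE 0.215, adjusted p = 0.0259) in the 2 comparisons. The second call was kept in 9 of 15 fits that left out 1 library, with the highest adjusted p, 0.0717, without isotype replicate 3.

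The anti–IL-4Rα libraries were all below the isotype libraries for 4 of the 43 collagen genes, each of type VI (*Col6a1*, *Col6a2*, *Col6a5* and *Col6a6*), and all above for 0, beside 4.96% and 2.35% of all genes. The same 4 genes were the only collagens called in isotype against PBS when the skeletal muscle score was a covariate, a fit in which 2.25% of all genes were called and in which the score itself differed between these groups without overlap. In that fit the log2 fold change of *Col6a3* went from 1.18 to 1.13 (adjusted p = 0.0913), *Col5a2* from 0.91 to 0.93 (adjusted p = 0.0850) and *Col5a3* from 0.62 to 0.76 (adjusted p = 0.0690). *Col3a1* went from 0.77 to 0.78, *Col5a1* from 0.71 to 0.72, *Col4a2* from 0.64 to 0.64 and *Col4a1* from 0.73 to 0.66. *Col18a1* went from 0.56 to 0.48, *Col8a2* from −0.63 to −0.54, *Col4a6* from −0.46 to −0.37 and *Col4a5* from −0.27 to −0.15. *Col20a1* went from −0.44 to −0.30, *Col11a1* from 1.27 to 0.83 and *Col12a1* from 0.98 to 0.73. Because the score did not overlap between these groups, the part of muscle in these differences cannot be told apart. *Col6a1*, *Col6a2*, *Col6a5* and *Col6a6* were called in isotype against PBS and in anti–IL-4Rα against isotype under all 12 alternative settings and all 15 fits without 1 library.

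**Figure D2:**
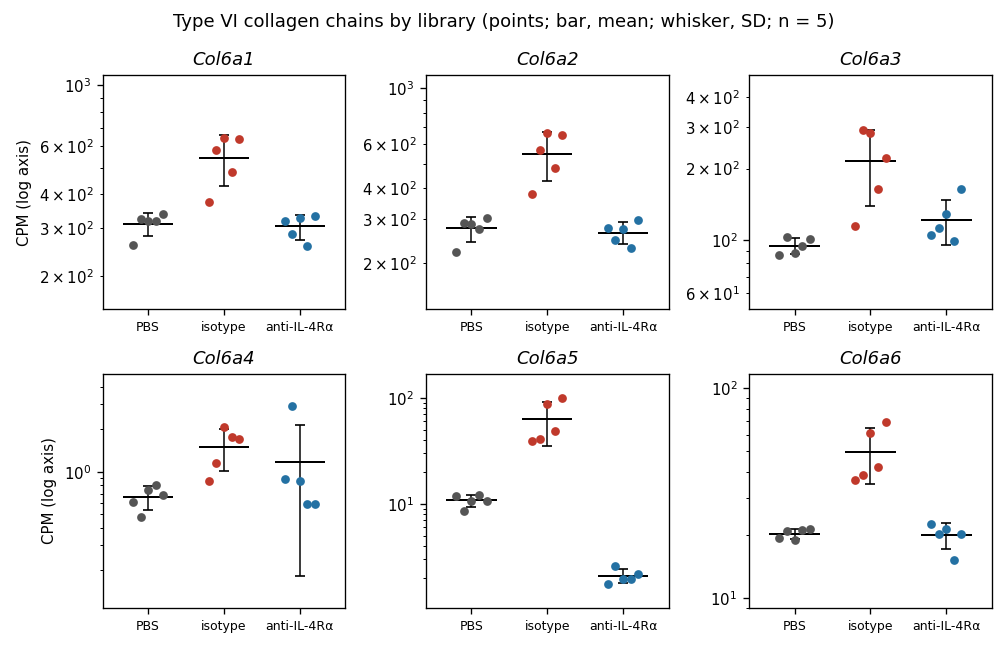
CPM of the 6 type VI collagen genes (vertical log axes, one panel per gene) in the 5 libraries of the PBS (gray), isotype (red) and anti–IL-4Rα (blue) groups, with the mean as a bar and the SD as a whisker. The isotype points of *Col6a5* sit at 39.5 to 99.5 CPM, the PBS points at 8.59 to 12.2 CPM and the anti–IL-4Rα points at 1.77 to 2.59 CPM.

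The proportions of the type VI chains were compared by ratios of FPKM, the CPM divided by exon length in kilobases, within each library (exact permutation test, two-sided, 10 ratios in 3 comparisons with p adjusted over 30 tests). The median ratio of *Col6a5* to *Col6a3* was 0.154 with PBS, 0.395 with isotype and 0.0215 with anti–IL-4Rα, and all 3 comparisons gave an adjusted p of 0.0238. The call for isotype against PBS held in 12 of the 15 fits without 1 library, and the others held in all 15. The ratio of *Col6a6* to *Col6a3*, by contrast, had medians of 0.278, 0.336 and 0.217, with adjusted p of 0.655, 0.146 and 0.0595. *Col6a2* to *Col6a1* went from 0.472 to 0.530 and 0.456, a small shift with little spread (log2 difference 0.19 and −0.21, adjusted p = 0.0238 each). *Col6a3* to *Col6a1* had medians of 0.110, 0.128 and 0.144 and differed between anti–IL-4Rα and PBS (adjusted p = 0.0397) but not by the test between the other pairs (0.0595 and 0.796). Its call held in 10 of the 15 fits without 1 library, and those of *Col6a2* to *Col6a1* held in all 15.

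Among fibrillar genes, 5 of 11 were higher with isotype than with PBS (*Col3a1*, *Col5a1*, *Col5a2*, *Col5a3* and *Col11a1*), 0 were lower, and 3 were lower with anti–IL-4Rα than with isotype. Of all genes tested, 9.53% were higher and 7.49% lower in the first comparison, and 8.13% were lower in the second. At the unadjusted p, 7 fibrillar genes were higher and 0 lower in the first comparison, with no share of all genes at that p given here. The class had a median log2 fold change of 0.62 and −0.40 in the 2 comparisons. No fibrillar gene passed between anti–IL-4Rα and PBS in edgeR, with 0 at an unadjusted p under 0.05, and DESeq2, limma voom and the linear model also called 0, with 2, 3 and 0 at the unadjusted p.

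Type V collagen starts the assembly of type I fibrils and limits their width. *Col5a2* (ENSMUSG00000026042, chr1:45374321-45503282) was at 130, 158, 140, 144 and 148 CPM with PBS, 157, 322, 336, 234 and 302 CPM with isotype, and 160, 162, 167, 124 and 203 CPM with anti–IL-4Rα. Isotype replicate 1 lay within the PBS range and the other 4 above it. On the log2 scale the difference was 0.91 (SE 0.175, adjusted p = 0.00552, exact permutation p = 0.0159) and −0.73 (SE 0.175, adjusted p = 0.0197, exact permutation p = 0.0397). *Col5a3* (ENSMUSG00000004098, chr9:20770050-20815067) was at 79.5, 97.3, 83.8, 85.6 and 102 CPM, then 88.9, 153, 162, 123 and 161 CPM, then 99.1, 92.0, 88.8, 82.5 and 102 CPM. Its isotype replicate 1 also fell among the PBS values. Its log2 fold changes were 0.62 (SE 0.138, adjusted p = 0.0105) and −0.57 (SE 0.138, adjusted p = 0.0205).

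The third type V gene, *Col5a1* (ENSMUSG00000026837, chr2:27886425-28039514), was at 129, 170, 173, 155 and 158 CPM with PBS, 153, 328, 306, 224 and 274 CPM with isotype and 202, 175, 191, 143 and 227 CPM with anti–IL-4Rα. It was higher with isotype than with PBS (log2 fold change 0.71, SE 0.177, adjusted p = 0.0170). Its value against isotype was −0.45 (SE 0.177, adjusted p = 0.0935), which did not pass. *Col11a1*, whose chain can join type V chains, rested largely on 1 library. It was at 3.79, 8.67, 6.88, 6.56 and 4.87 CPM with PBS, 6.27, 33.1, 13.9, 13.1 and 7.56 CPM with isotype and 3.94, 6.19, 7.80, 3.56 and 7.70 CPM with anti–IL-4Rα. Isotype replicate 2, at 33.1 CPM, was also the library where 10 hair follicle markers summed to 11228 CPM against 622 to 2018 CPM in the 14 others. The part of those cells in the result was not tested. The same library was also the highest of all, among others, for *Col1a1*, *Col1a2*, *Col4a1*, *Col4a2*, *Col5a1*, *Col12a1*, *Col15a1* and *Col18a1*. This limit therefore holds for those genes too. The log2 fold changes of *Col11a1* were 1.27 (adjusted p = 0.0460) and −1.34 (adjusted p = 0.0430), and without that library the first was 0.73 (adjusted p = 0.147) and the second −0.80 (adjusted p = 0.124). The calls held in 4 and 6 of the 15 fits without 1 library.

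Types I and III are the bulk of the stroma. *Col3a1* (ENSMUSG00000026043, chr1:45311538-45349706) was at 1520, 1846, 1653, 1690 and 1872 CPM with PBS, 1779, 3426, 3651, 2409 and 3348 CPM with isotype and 2166, 2115, 2227, 1569 and 3035 CPM with anti–IL-4Rα. It was higher with isotype than with PBS (log2 fold change 0.77, SE 0.194, adjusted p = 0.0178), with 1 isotype library inside the PBS range. Against isotype its value was −0.40 (SE 0.193, adjusted p = 0.170). *Col1a1* was at 878, 1125, 1148, 1122 and 1233 CPM, then 1083, 2732, 2235, 1221 and 1702 CPM, then 1364, 1264, 1373, 992 and 2121 CPM. The isotype libraries were widely spread, with 2 of 5 inside the PBS range, and neither *Col1a1* (log2 fold change 0.70, SE 0.245, adjusted p = 0.0625) nor *Col1a2* (0.48, SE 0.190, adjusted p = 0.0927) passed. The other fibrillar genes, *Col2a1*, *Col11a2*, *Col24a1* and *Col27a1*, had log2 fold changes of −0.59 to 0.07 in isotype against PBS and did not pass.

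Ratios within a library were compared for the fibrillar chains too. The median ratio of *Col5a2* to *Col1a2*, per length, was 0.140 with PBS, 0.196 with isotype and 0.136 with anti–IL-4Rα. It was higher with isotype than in either other group (log2 difference 0.42 and −0.50, adjusted p = 0.0238 each) and the difference between anti–IL-4Rα and PBS did not pass (adjusted p = 0.271). The call for isotype against PBS held in 12 and that for anti–IL-4Rα against isotype in 15 of the 15 fits without 1 library. *Col1a1* to *Col1a2* had medians of 1.57, 1.82 and 1.64, with an adjusted p of 0.0549 for isotype against PBS. *Col3a1* to *Col1a1* had medians of 1.01, 1.10 and 1.06 and gave an adjusted p of 0.568. *Col11a1* to *Col11a2* had medians of 0.193, 0.381 and 0.224. By the exact permutation test this ratio differed between isotype and PBS (adjusted p = 0.0238). It also differed between anti–IL-4Rα and PBS (log2 difference 0.51, adjusted p = 0.0397) but not between anti–IL-4Rα and isotype (adjusted p = 0.0700). The 2 calls held in 12 and 8 of the 15 fits without 1 library.

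The fibrillar calls against isotype depended on the setting: edgeR called 0 of 11 when only the 2 groups compared were fitted, with the lacrimal or the fibroblast score as a covariate, and without isotype replicate 2 or 3 (3 or 4 genes at an unadjusted p under 0.05), and called 5 without isotype replicate 1 and 1 without anti–IL-4Rα replicate 4. In isotype against PBS it called 0 of 11 with the skeletal muscle score as a covariate, 4 of them at an unadjusted p under 0.05.

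**Figure D3:**
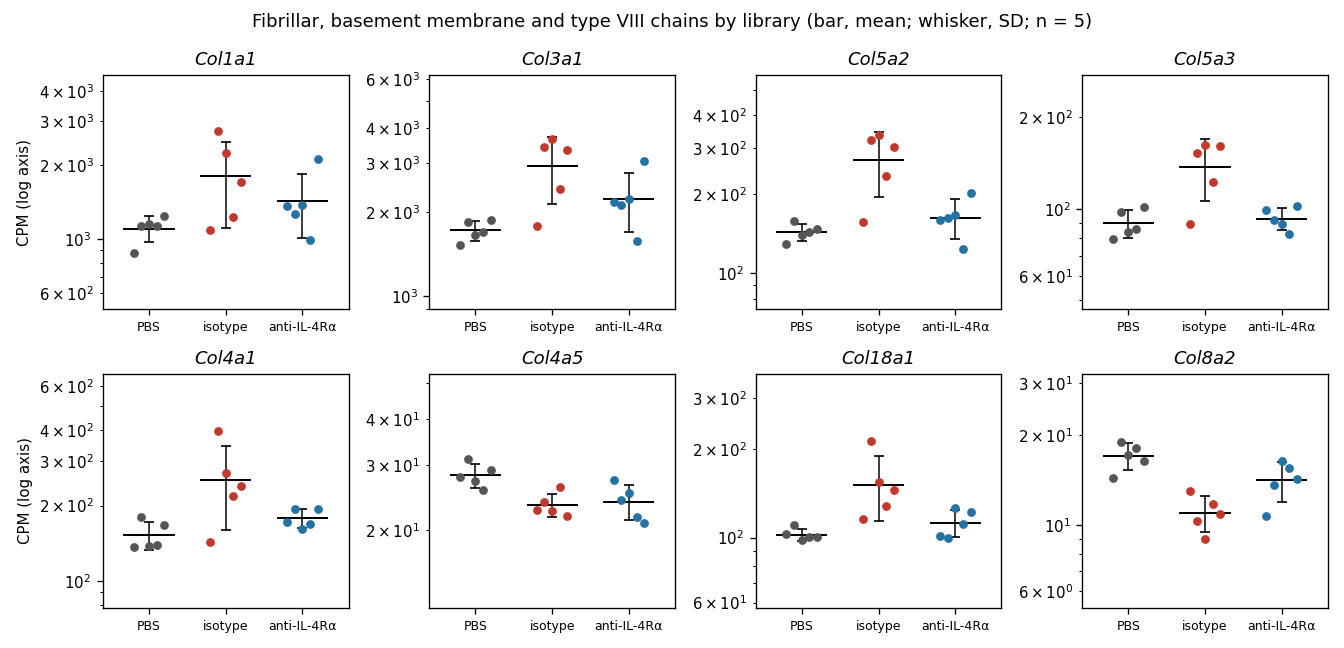
CPM of 8 fibrillar, basement membrane and type VIII genes (vertical log axes) in the 5 libraries of each group, PBS in gray, isotype in red and anti–IL-4Rα in blue, with the mean as a bar and the SD as a whisker. One isotype point of *Col3a1*, *Col5a2*, *Col5a3* and *Col4a1*, from replicate 1, sits at the PBS level, while all isotype points of *Col8a2* are below those of PBS.

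Type IV genes lie in head-to-head pairs, and the pairs went in different directions with isotype against PBS. *Col4a1* and *Col4a2*, whose starts overlap by 22 bases on chromosome 8 and which form the main network of most basement membranes, were higher; *Col4a5* and *Col4a6*, 1308 bases apart on chromosome X and part of a network found under some epithelia, were lower. The third pair, *Col4a3* and *Col4a4*, 71 bases apart on chromosome 1, did not pass, with log2 fold changes of −0.28 (SE 0.353) and −0.20 (SE 0.133). Whether counting used strand is not given in the sources used here, so reads in the shared stretch of *Col4a1* and *Col4a2* may be assigned to either.

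*Col4a1* (ENSMUSG00000031502, chr8:11198423-11312826) was at 136, 179, 138, 140 and 168 CPM with PBS, 143, 396, 269, 218 and 239 CPM with isotype, and 171, 194, 161, 169 and 194 CPM with anti–IL-4Rα. *Col4a2* (ENSMUSG00000031503, chr8:11312805-11449287) was at 99.0, 136, 102, 106 and 127 CPM, then 105, 264, 190, 160 and 172 CPM, then 129, 141, 120, 120 and 138 CPM. In both, isotype replicate 2 was highest and replicate 1 lay in the PBS range. The log2 fold changes were 0.73 (SE 0.195, adjusted p = 0.0218) and 0.64 (SE 0.179, adjusted p = 0.0266) for isotype against PBS. Against isotype, anti–IL-4Rα gave −0.51 (adjusted p = 0.0896) and −0.46 (adjusted p = 0.0936), which did not pass. *Col4a2* lost its call in 5 of the 15 fits without 1 library and *Col4a1* in 1, without isotype replicate 3 (adjusted p = 0.0509). Each held its call in 7 of the 12 alternative settings. Both lost it with only the 2 groups fitted, with the muscle or the fibroblast score as a covariate, and without the 2 libraries of lowest lacrimal score. They also lost it in the linear model on log2(FPKM + 1), which called 0 type IV genes higher and 2 lower.

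*Col4a5* (ENSMUSG00000031274, chrX:141475385-141689234) was at 27.8, 31.2, 27.2, 25.7 and 29.2 CPM with PBS, 22.7, 23.9, 22.5, 26.2 and 21.9 CPM with isotype, and 27.3, 24.2, 25.2, 21.7 and 21.0 CPM with anti–IL-4Rα. The difference between isotype and PBS was small, with 1 isotype library inside the PBS range (log2 fold change −0.27, SE 0.0764, adjusted p = 0.0299), and against PBS the anti–IL-4Rα group was at −0.24 (SE 0.0765, adjusted p = 0.0851). *Col4a6* was at 1.72 to 2.25 CPM with PBS, 1.30 to 1.52 CPM with isotype and 1.26 to 2.08 CPM with anti–IL-4Rα; isotype did not overlap with PBS (log2 fold change −0.46, adjusted p = 0.0347). The call of *Col4a5* held in 10 and that of *Col4a6* in 8 of the 15 fits without 1 library, and in 8 and 7 of the 12 alternative settings. The median ratio of *Col4a1* to *Col4a5*, per length, was 4.90 with PBS, 9.80 with isotype and 7.01 with anti–IL-4Rα, and both OVA-challenged groups differed from PBS (adjusted p = 0.0238 each) but not from each other by this test (adjusted p = 0.167). The 2 calls against PBS held in 12 (isotype) and 10 (anti–IL-4Rα) of the 15 fits without 1 library.

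*Col18a1* (ENSMUSG00000001435, chr10:77052178-77166548), a proteoglycan of the basement membrane zone whose C-terminal fragment is endostatin, was at 103, 110, 97.8, 101 and 100 CPM with PBS, 115, 213, 155, 128 and 145 CPM with isotype, and 102, 99.7, 126, 111 and 122 CPM with anti–IL-4Rα. All isotype libraries were above PBS (log2 fold change 0.56, SE 0.131, adjusted p = 0.0122). Against isotype the value was −0.43 (SE 0.130, adjusted p = 0.0421), a call that held in 3 of the 15 fits without 1 library. *Col15a1*, the related multiplexin, was nearest to the threshold among the genes not called in isotype against PBS (log2 fold change 0.39, SE 0.131, adjusted p = 0.0530). *Col7a1*, the gene of the anchoring fibrils that tie the epithelium to its stroma, was at 132 ± 10.6, 144 ± 12.4 and 147 ± 28.2 CPM (SD, n = 5) in the PBS, isotype and anti–IL-4Rα groups and did not pass in any comparison. *Col17a1*, a transmembrane collagen of the hemidesmosomes of basal epithelial cells, was at 820 ± 98.9, 746 ± 49.2 and 721 ± 98.1 CPM and did not pass either. The other transmembrane genes, *Col13a1*, *Col23a1* and *Col25a1*, also did not pass; *Col23a1* was nearest in anti–IL-4Rα against PBS (log2 fold change −0.23, SE 0.0704, adjusted p = 0.0794).

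*Col8a2* (ENSMUSG00000056174, chr4:126286793-126314330), which encodes a chain of the lattice in the Descemet membrane of the cornea, was at 14.4, 18.9, 17.2, 18.1 and 16.4 CPM with PBS, 13.01, 10.3, 8.94, 11.8 and 10.9 CPM with isotype and 10.7, 13.7, 16.4, 15.5 and 14.3 CPM with anti–IL-4Rα. All isotype libraries were below all PBS libraries. On the log2 scale the difference was −0.63 (SE 0.120, adjusted p = 0.00502, exact permutation p = 0.00794), held in all 15 fits without 1 library, and was 0.36 (SE 0.120, adjusted p = 0.0552) for anti–IL-4Rα against isotype. Its partner *Col8a1* did not pass (−0.13, SE 0.199). Of 4 corneal stroma markers, 1 (*Aldh3a1*, −0.69) was lower with isotype than with PBS, and they summed to 834 to 1103, 437 to 854 and 724 to 1035 CPM in the 3 groups; their part in the *Col8a2* difference was not tested.

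Of the 8 FACIT genes tested, *Col12a1* was higher and *Col20a1* was lower with isotype than with PBS. That is 12.5% of the class in each direction, close to the 9.53% higher and 7.49% lower of all genes. *Col12a1* (ENSMUSG00000032332, chr9:79598991-79718831), a collagen on the surface of type I fibrils, was at 31.6, 37.5, 25.9, 29.0 and 24.95 CPM with PBS, 34.2, 112, 58.8, 41.1 and 48.4 CPM with isotype, and 25.4, 29.9, 35.4, 39.5 and 38.1 CPM with anti–IL-4Rα. Isotype replicate 2 was again the highest. On the log2 scale the difference was 0.98 (SE 0.264, adjusted p = 0.0226) and −0.81 (SE 0.263, adjusted p = 0.0524); without isotype replicate 2 the first was 0.62, and without PBS replicate 5 its adjusted p was 0.0551. *Col20a1* (ENSMUSG00000016356, chr2:180986535-181018363) was at 11.96, 14.3, 16.3, 14.7 and 16.04 CPM, then 12.5, 8.60, 9.09, 13.2 and 10.8 CPM, then 17.5, 13.8, 13.97, 12.6 and 13.5 CPM. Its isotype and PBS ranges overlapped (log2 fold change −0.44, SE 0.129, adjusted p = 0.0326, a call held in 8 of the 15 fits without 1 library), and the value against isotype, 0.40 (SE 0.129, adjusted p = 0.0501), was the nearest to the threshold among genes not called. *Col14a1*, the FACIT gene with the highest level per length, had 0.32 (SE 0.118, adjusted p = 0.0723), and *Col22a1*, a collagen of muscle–tendon junctions, −0.76 (SE 0.256, adjusted p = 0.0551) for isotype against PBS.

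Per length, the collagens spanned several orders of magnitude. In the PBS group *Col3a1* was highest at 175 ± 14.8 FPKM (SD, n = 5), followed by *Col1a1* at 168 ± 20.2, *Col17a1* at 136 ± 16.4, *Col1a2* at 105 ± 9.26, *Col6a1* at 71.2 ± 6.89 and *Col6a2* at 33.2 ± 3.80 FPKM. *Col3a1* and *Col1a1* did not differ beyond their spread. In the isotype group the levels were 298 ± 81.1 for *Col3a1*, 273 ± 106 for *Col1a1*, 148 ± 43.9 for *Col1a2*, and 124 for both *Col17a1* and *Col6a1* (SD 8.19 and 25.8). *Col6a5* was 30th of the 44 collagens by mean FPKM with PBS (1.15 ± 0.152), 18th with isotype (6.73 ± 2.996) and 37th with anti–IL-4Rα (0.223 ± 0.0334). The rank of *Col6a6* was 25, 20 and 23, and that of *Col6a3* 17, 15 and 17.

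The 44 genes together took 0.752% ± 0.0442 of a library's counts with PBS, 1.15% ± 0.328 with isotype and 0.741% ± 0.157 with anti–IL-4Rα (SD, n = 5). The share ranged from 0.686% to 0.808% in PBS and from 0.713% to 1.503% in isotype, where replicate 1 was the lowest. *Col1a1*, *Col1a2* and *Col3a1* made up a mean of 57.8%, 60.3% and 63.0% of the collagen counts in the 3 groups. The type VI genes took 0.0753% ± 0.00599, 0.151% ± 0.0396 and 0.0646% ± 0.0121 of all counts, and here every isotype library, from 0.0950% up, was above every PBS and anti–IL-4Rα library, at most 0.0799% and 0.0823%. The shares are not scaled for lacrimal gland RNA, whose markers were above the level of every PBS and isotype library in 4 of the 5 anti–IL-4Rα libraries, all but replicate 3.

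**Figure D4:**
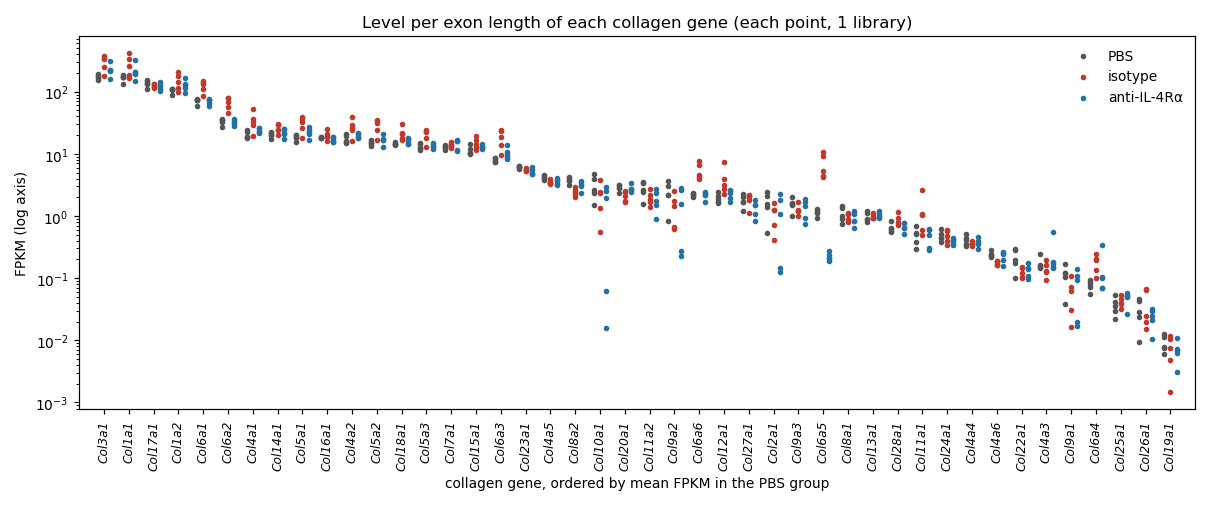
Level per exon length (FPKM, vertical log axis) of the 44 collagen genes, ordered by their mean in the PBS group, with 1 point per library for the PBS (gray), isotype (red) and anti–IL-4Rα (blue) groups. *Col3a1*, *Col1a1*, *Col17a1* and *Col1a2* lead at over 100 FPKM in the PBS mean, and *Col6a5* is the gene whose 3 colors are farthest apart.

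The cartilage-type collagens *Col2a1*, *Col9a2*, *Col10a1* and *Col11a2* varied from library to library within groups and none of them passed. *Col11a1*, the other type XI gene, did pass in isotype against PBS and in anti–IL-4Rα against isotype, as given above. *Col2a1*, the fibril collagen of cartilage, was at 4.92, 19.6, 22.2, 12.8 and 14.1 CPM with PBS, 3.80, 6.72, 11.7, 15.2 and 11.4 CPM with isotype, and 1.15, 16.7, 20.6, 1.36 and 9.97 CPM with anti–IL-4Rα. *Col10a1*, a marker of hypertrophic cartilage, was at 4.65, 12.1, 14.7, 8.18 and 7.43, then 1.76, 4.21, 7.42, 11.8 and 7.60, then 0.192, 7.94, 9.33, 0.0494 and 6.09 CPM; the lowest value stands for 2 counts. *Col9a2* was at 2.61 to 11.3, 1.94 to 7.95 and 0.692 to 8.83 CPM. For *Col2a1*, *Col10a1* and *Col9a2*, anti–IL-4Rα replicates 1 and 4 were the lowest libraries of all 15.

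The score of 8 cartilage markers, the mean log2 CPM relative to the mean of all libraries, was lowest in the same 2 libraries, at −1.22 and −1.24, and was −0.65 in isotype replicate 1, against 0.98 and 0.85 in PBS replicates 2 and 3. As summed CPM, the 8 markers were at 37.2 in anti–IL-4Rα replicate 1, below the 48.0 to 103 CPM of the PBS group. They were at 67.3 CPM in anti–IL-4Rα replicate 4 and 67.1 CPM in isotype replicate 1, inside that PBS range. The markers had median log2 fold changes of −0.48, −0.05 and −0.53 in isotype against PBS, anti–IL-4Rα against isotype and anti–IL-4Rα against PBS, and none passed in edgeR. The part of cartilage in these values was not tested. The log2 fold changes of *Col2a1*, *Col9a1*, *Col9a2* and *Col10a1* in isotype against PBS had SEs of 0.574 to 0.826, against 0.133 for *Col6a1*.

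**Figure D5:**
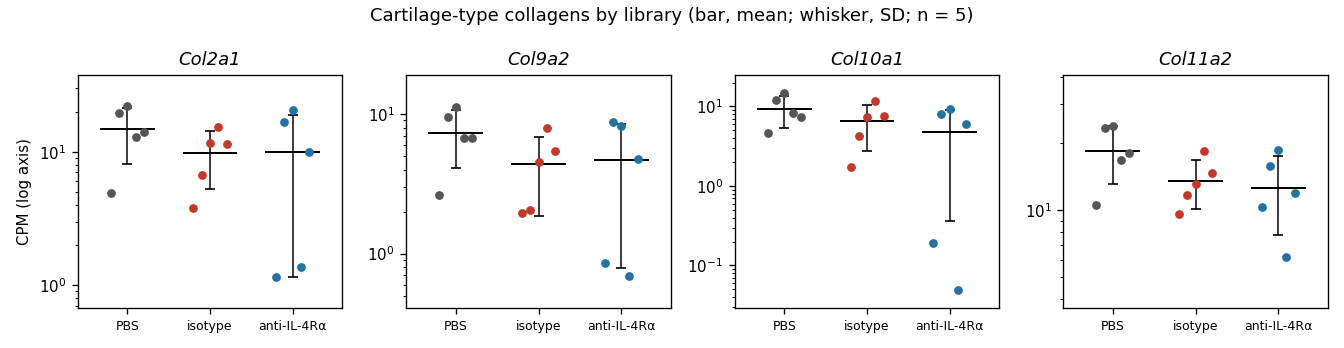
CPM of 4 cartilage-type collagens (vertical log axes) in the 5 libraries of each group, with the mean as a bar and the SD as a whisker. Within the anti–IL-4Rα group the points of *Col10a1* run from 0.0494 to 9.33 CPM, and in the PBS group from 4.65 to 14.7 CPM, a shorter stretch of the log axis.

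Beyond the collagens themselves, 78 genes that modify, process, cross-link, bind or degrade collagen were listed, of which 77 were tested. With isotype against PBS 22 were higher and 4 lower, with anti–IL-4Rα against isotype 6 were higher and 18 lower, and with anti–IL-4Rα against PBS 2 were higher and 0 lower. The median log2 fold changes were 0.17, −0.15 and 0.08. The background shares of all genes called in this fit were 17.0%, 14.9% and 3.72%. The counts that follow come from fits without 1 library. The share of all genes called in those fits is not given here, so they have no background beside them. The second count was 40 without isotype replicate 1 and 10 to 15 without any 1 of isotype replicates 2, 3 and 5 and anti–IL-4Rα replicates 1, 2, 4 and 5. The third was 0 without any 1 of PBS replicates 1 to 4 and anti–IL-4Rα replicates 1, 2, 4 and 5, with 9 to 14 genes at an unadjusted p under 0.05, 1 without isotype replicate 3, 4 or 5, 4 without isotype replicate 2 and 8 without anti–IL-4Rα replicate 3.

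Of 21 genes for hydroxylation and folding of collagen chains, 7 were higher with isotype than with PBS, among them *P4ha3* (a prolyl hydroxylase subunit, log2 fold change 1.27, SE 0.210, adjusted p = 0.00246), *Plod3* (0.33, SE 0.0637, adjusted p = 0.00546) and *Plod1* (0.46, SE 0.110, adjusted p = 0.0140), both lysyl hydroxylases, and *P3h1* (0.50, SE 0.127, adjusted p = 0.0178). With anti–IL-4Rα against isotype 6 were lower, led by *Plod2* (−0.91, adjusted p = 0.0153) and *P4ha3* (−0.89, adjusted p = 0.0175), and 3 were higher: *Mia3* and *Mia2*, which load collagen into transport carriers (0.41 and 0.50, adjusted p = 0.0242 and 0.0259), and *P4hb*, protein disulfide isomerase (0.69, adjusted p = 0.0455). *Mia3* and *P4hb* were also the 2 pathway genes higher with anti–IL-4Rα than with PBS, beside 2.28% of all genes. The lacrimal acinar markers were highest in 4 libraries of the same group. With the lacrimal score as a covariate, 0 pathway genes were called in anti–IL-4Rα against PBS, with 11 at an unadjusted p under 0.05. The count was also 0 with the muscle score as a covariate (11 at the unadjusted p) and in the linear model on log2(FPKM + 1) (12). The share of all genes called in these fits is not given here. The part of the lacrimal gland in these values was not tested further.

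Cross-linking genes included *Lox*, lysyl oxidase, at a mean of 23.7, 46.6 and 25.8 CPM in the PBS, isotype and anti–IL-4Rα groups. It was higher with isotype (log2 fold change 0.97, SE 0.191, adjusted p = 0.00603) and lower with anti–IL-4Rα (−0.85, SE 0.191, adjusted p = 0.0151), and *Loxl2* followed the same course (0.76 and −0.47). The other 3 of 5 cross-linking genes did not pass. Of 8 genes for propeptide processing, *Bmp1* (0.41, adjusted p = 0.0155) and *Adamts2* (0.55, adjusted p = 0.0205), which cut the C- and N-terminal propeptides, were higher with isotype, and *Pcolce2*, an enhancer of that cleavage, was lower (−0.50, adjusted p = 0.0198).

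Collagen-degrading enzymes and their inhibitors included large differences. *Mmp13*, a collagenase, was at a mean of 0.717 CPM with PBS, 13.5 with isotype and 1.19 with anti–IL-4Rα (log2 fold change 4.23, SE 0.485, adjusted p = 0.000375, and −3.50, SE 0.466, adjusted p = 0.00114). *Mmp8*, the neutrophil collagenase, scarce at a mean of 0.338 CPM with isotype (1.37 and −2.46), and the gelatinase *Mmp9* (0.96 and −1.46) passed in both comparisons too, so 3 of the 7 listed enzymes were called. The inhibitor *Timp1* was at 3.08, 20.7 and 3.64 CPM (log2 fold change 2.75, adjusted p = 0.000929, and −2.51, adjusted p = 0.00221), whereas *Timp3* was lower with isotype (−0.34, adjusted p = 0.00878). Leukocyte markers were higher with isotype than with PBS for 6 of 10, beside 9.53% of all genes, and the part of leukocytes in these values was not tested.

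Of 8 proteoglycans that bind collagen fibrils, *Dcn* (decorin) was lower with isotype (log2 fold change −0.42, SE 0.0915, adjusted p = 0.00926) and higher with anti–IL-4Rα than with isotype (0.38, adjusted p = 0.0189), and *Fmod* (fibromodulin) was lower with isotype (−0.71, adjusted p = 0.0226). Of 9 receptor genes tested, 3 were higher with isotype, namely *Itga11*, the integrin subunit for fibrillar collagen on fibroblasts (0.78, adjusted p = 0.00280), *Lair1*, an inhibitory receptor of leukocytes (1.01, adjusted p = 0.00725), and *Itgb1* (0.21, adjusted p = 0.0196). *Itga11* was lower with anti–IL-4Rα than with isotype (−1.15, adjusted p = 0.000368). Of 15 basement membrane partners, *Pxdn*, peroxidasin, which cross-links type IV collagen, passed in both comparisons (0.73 and −0.64), and the laminin gene *Lamb1* (0.45) and the nidogen gene *Nid2* (0.53) were higher with isotype.

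Of 5 myofibroblast markers, 3 were higher in isotype against PBS, beside 9.53% of all genes: *Postn*, periostin (log2 fold change 1.24, SE 0.157, adjusted p = 0.000637), *Lrrc15* (1.53) and *Cthrc1* (0.88). They summed to 694 to 1181 CPM with PBS, 1185 to 1379 with isotype and 742 to 1034 with anti–IL-4Rα. *Postn* was also lower with anti–IL-4Rα than with isotype (−1.28, SE 0.157, adjusted p = 0.000594), the 1 marker of 5 called there, while the median of the 5 was 0.16. *Cthrc1* was higher with anti–IL-4Rα than with PBS (1.204, adjusted p = 0.0231). Of 8 fibroblast markers tested, 1, *Thy1*, was called, higher with isotype than with PBS (0.56, adjusted p = 0.0101) and lower with anti–IL-4Rα than with isotype (−0.40, adjusted p = 0.0451). With the fibroblast score as a covariate, 11 collagen genes were called in isotype against PBS, where 11.1% of all genes were, and 4 in anti–IL-4Rα against isotype, where 3.69% were. The part of these cells in the collagen differences was not tested further.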

How the data were processed

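The authors deposited 1 table of estimated counts per gene for all 15 libraries, made in Omicsoft Array Studio from quality-filtered reads of stranded mRNA libraries that mapped to 1 place in mouse genome B38, with genes taken from Ensembl; the counting method, the use of strand and the software version are not given in the sources used here. Groups and replicate numbers came from the labels. The study's methods mention outlier samples without naming them, and all 15 libraries were kept.

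Counts were rounded to whole numbers. The 19006 genes that reached 10 counts in 5 or more libraries were tested in edgeR 4.0.16 under R 4.3.3: TMM factors, 1 quasi-likelihood fit of 3 groups, two-sided, Benjamini-Hochberg adjustment over all genes tested, call at an adjusted p under 0.05. CPM were scaled by TMM factors, and FPKM divided them by the union exon length of GENCODE M21 on GRCm38. Single values and ratios were compared by exact permutation over the 252 splits of 10 libraries. The fit was tested on simulated data. For isotype against PBS, 183 of 200 genes changed among 18852 were called in the right direction, among 193 calls. The sizes of the changes put in are not given here, and recovery of differences of the sizes seen in the collagen genes was not tested. Alternatives were other factors and filters, DESeq2 1.42.0, limma 3.58.1 (voom), a linear model on log2(FPKM + 1), a replicate block, marker scores as covariates and libraries left out. Of the 18 collagen genes called in any comparison, the 16 with the smallest adjusted p were described in full, with the genes nearest to the threshold and up to 4 per pathway list. The members and lists were chosen with earlier results of these data known. Libraries of a group differed by more than counting error (chi-square per degree of freedom of at least 19.3 in 30 pairs). One gene of the pathway lists is not reported here.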

Additional observations from a re-analysis of the deposited data

Results flagged for a closer look

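Among 48 sets of 5 library values examined for the collagen genes described in full, 2 had a library set apart from the 4 others, and chance sets 1 apart in about 1 of 20. *Col6a1* was at 260 CPM in PBS replicate 1, below the 318 to 338 CPM of the other PBS libraries. *Col20a1* was at 17.5 CPM in anti–IL-4Rα replicate 1, above the 12.6 to 13.97 CPM of the others in its group.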

How the results depend on the processing

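No called gene or ratio changed direction. Of genes not called, under the alternatives that did not leave out 1 library, *Col22a1* ran from −0.88 to 0.10 in isotype against PBS and *Col2a1* from −1.18 to 0.59 in anti–IL-4Rα against isotype. The median collagen log2 fold changes moved by less than the spread between libraries under every alternative, and without 1 library they ran from 0.11 to 0.29, −0.31 to −0.15 and −0.10 to 0.02 for isotype against PBS, anti–IL-4Rα against isotype and anti–IL-4Rα against PBS, the last of which turned sign. Of the values for single genes and ratios under the alternatives, 3696 kept their side of the threshold, 173 lost a call and 64 gained one.

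For isotype against PBS, the 18 collagen calls became 4 with the skeletal muscle score and 11 with the fibroblast score as a covariate; the 5 fibrillar calls became 0, 3 and, without PBS replicate 1 and isotype replicate 2 (the libraries with the lowest lacrimal score), 2; the 26 pathway calls became 11 with the muscle score and 16 without those 2 libraries. Both the fibroblast covariate and the omission of these 2 libraries were chosen after seeing the data. For anti–IL-4Rα against isotype, the 9 collagen calls became 4 and the 3 fibrillar calls 0 when only these groups were fitted, with the lacrimal or the fibroblast score as a covariate, and without the same 2 libraries; the 24 pathway calls became 8, 7, 11 and 8. For anti–IL-4Rα against PBS, the 1 collagen call became 3 with DESeq2, 3 with limma voom and 0 with the linear model on log2(FPKM + 1), which had 5 genes at an unadjusted p under 0.05; the type VI call was lost with the last (0 called, 1 at the unadjusted p); the 2 pathway calls became 1 without a count filter, 1 with only these groups, 0 with the muscle score (11 at the unadjusted p), 0 with the lacrimal score (11), 0 without the 2 libraries (14), 5 with the fibroblast score, 5 with DESeq2, 7 with voom and 0 with the linear model (12). The cause was not tested. The share of all genes called under these alternatives, or without 1 library, is not given beside these counts. It can differ from that of the main fit.

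Leaving out 1 library gave 12 to 23, 4 to 17 and 1 to 2 collagen calls, 5 to 6, 4 to 5 and 1 to 1 type VI calls, 4 to 7, 0 to 5 and 0 to 0 fibrillar calls, and 19 to 37, 10 to 40 and 0 to 8 pathway calls in the 3 comparisons. Against isotype, the collagen count was 17 without isotype replicate 1 and 4 without replicate 2 or 3; against PBS it was 2 without anti–IL-4Rα replicate 3.

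The replicate numbers did not pair the libraries: over 15 same-numbered pairs the correlation of deviations was −0.385 to 0.454 (median 0.00130). With the replicate number as a block, 16, 8 and 1 collagen genes and 28, 21 and 1 pathway genes were called.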
